A study of Mus musculus with 4 samples.

Results

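The genes described here are the nuclear-encoded subunits of oxidative phosphorylation. They were chosen by symbol: names beginning with Ndufa, Ndufb, Ndufc, Ndufs or Ndufv and a digit, with Uqcr, with Cox and a digit from 4 to 8, or with Atp5, together with Sdha, Sdhb, Sdhc and Sdhd. A symbol containing -ps was left out, which removed 1 gene, Ndufb1-ps. The rule found 84 of the 32285 genes in the count tables, and it used no measured value. Of these, 35 encode complex I subunits, 4 complex II, 8 complex III, 20 complex IV and 17 ATP synthase (complex V), with Ndufa4 and its relatives counted in complex IV.

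Cells make most of their ATP in the inner mitochondrial membrane. Complexes I and II pass electrons from NADH and succinate to ubiquinone, complex III hands them to cytochrome c, complex IV gives them to oxygen, and ATP synthase uses the proton gradient that results. The core subunits are encoded partly by mitochondrial DNA, while all complex II subunits and most accessory subunits are nuclear genes whose products are imported. Resting T cells rely largely on this pathway, and activated T cells add glycolysis to it.

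The study asked how B7-H3 (Cd276), an immune checkpoint protein, acts in Tsc2-deficient tumors. The 105K line, derived from a mouse kidney tumor without Tsc2, was made to express a non-targeting hairpin (sh-NC) or a hairpin against B7-H3, sh-B7-H3 (1), and was grown under the skin of Wild-type C57BL/6J mice, 6-week-old males. CD3+ T cells sorted from 80 pooled tumors per group were profiled by CITE-seq, which counts RNA molecules (UMIs) and antibody tags in single cells. There were 2 libraries per group, 4 in all. The tumor cells of all groups lack Tsc2, the mice carried no altered gene, and the knockdown line rests on 1 hairpin. The hairpin acts in tumor cells, which the sort removes, so Cd276 in these libraries cannot check the labels. The labels call the libraries duplicates of 1 pool per group, and the study's methods also describe pooling the tumors of a group, while a legend calls the libraries independent samples. The p-values speak only of the spread between libraries, and a difference in handling between the pools cannot be told apart from the knockdown.

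After filters the libraries held 6105 and 4977 sh-NC cells and 2958 and 3986 sh-B7-H3 (1) cells, with medians of 7888, 8338, 6397 and 6602.5 UMIs. From 17 to 35 cell barcodes were shared between any pair of libraries. Cells were called Cd8, Cd4 or Foxp3 (regulatory) by their RNA UMIs and split at 20 UMIs of Ccl5, a chemokine of effector T cells. Between 19.79% and 24.03% of the cells left after filters in a library fitted none of the 3 calls and entered no comparison. The T cell markers Cd3d, Cd3e, Cd3g and Trac were present in every class of every library. Ccl5 at 20 or more was found in 7.01% and 8.64% of Cd4 cells in sh-NC and in 47.3% and 45.1% in sh-B7-H3 (1). In Cd8 cells it was 13.9% and 18.2% against 63.9% and 58.8%, and in Foxp3 cells 3.86% and 5.06% against 9.50% and 10.95%. Few cells lay near the limit: those with 15 to 24 Ccl5 UMIs made up between 0.0675% and 2.90% of Cd4 cells and between 1.01% and 2.65% of Cd8 cells, though between 3.86% and 7.66% of Foxp3 cells. Foxp3 cells with Ccl5 of 20 or more numbered 14 to 30 per library and were not tested.

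The groups also differed in measures of RNA quality. In the 5 classes tested, Gm42418 and AY036118, which carry ribosomal RNA sequence, summed to between 5456 and 6549 CPM (UMIs of a gene per 1000000 UMIs of the class) in sh-NC and to between 29590 and 33220 in sh-B7-H3 (1), in every class and library and with no overlap. More cells of the sh-B7-H3 (1) libraries passed the limit of 5% mitochondrial UMIs and were removed, 2643 of 7030 and 3330 of 9129 against 2535 of 12112 and 2251 of 10589. The effector list (Ccl5, Nkg7, Gzmk, Gzmb, Ifng and Ccl4) still differed between groups within Ccl5 classes. In Cd4 cells under 20 it summed to between 121.4 and 132.2 CPM in sh-NC and between 1006 and 1157 in sh-B7-H3 (1), with all 6 genes detected. In Cd8 cells over the limit it was 22370 and 22750 CPM in sh-NC against 29330 and 29240, and in Cd4 cells over it the direction was the opposite, 40090 and 39080 against 29670 and 27290. In Cd8 cells under 20 it was 628.9 and 663.8 against 1056 and 1000, and in Foxp3 cells under 20 it was 511.2 and 599.3 against 1034 and 1013. In these 5 classes myeloid markers summed to between 155 and 1194 CPM over libraries, the highest in Foxp3 cells of 1 sh-NC library, with at most 1 of 12 at 0. B cell markers summed there to at most 23.84 CPM, and tumor and stroma markers to between 18.64 and 83.02 CPM with 3 to 5 of 7 at 0. The part of these measures in each knockdown difference below was not tested.

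In control Cd4 cells under the Ccl5 limit, 72 of the 84 members stood at 50 CPM or more and 8 at 500 or more, with a median of 184 CPM. UMIs were counted at transcript 3′ ends, so levels do not scale with gene length. Atp5e, the epsilon subunit in the central stalk of ATP synthase, was highest at 844.5 CPM, followed by Uqcrh, the hinge protein of complex III, at 785.5 CPM. Of the 84, 77 passed the filter on low counts in at least 1 comparison. The other 7 had next to no UMIs among the 112893024 of all classes: Cox7a1 had 53, Cox6a2 had 11, Cox4i2 had 10, Ndufa4l2 and Cox8c had 1 each, and Cox7b2 and Cox8b had none. These are mostly forms known from muscle, testis or hypoxic cells. The total of 0 UMIs allows a level of up to 3 UMIs in that total, by counting error alone. Cox6b2, the testis form of Cox6b1, passed the filter in some comparisons at 0 to 5.40 CPM in Cd4 and Cd8 classes, too low for a stable difference.

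Cells over the Ccl5 limit gave a larger share of their RNA to the members. In Cd4 cells under 20 the members took 1.86% and 1.85% of UMIs in sh-NC and 1.93% and 1.90% in sh-B7-H3 (1), and at 20 or more 2.62%, 2.60%, 2.56% and 2.60%. In Cd8 cells the share was 1.89%, 1.89%, 1.91% and 1.88% under 20, and 2.39%, 2.38%, 2.55% and 2.53% at 20 or more. Within each library the share was 1.33 to 1.41 times higher over the limit in Cd4 cells and 1.26 to 1.35 times in Cd8 cells. Ribosomal protein genes took the opposite course. Their share in sh-NC averaged 42.9% under 20 and 26.0% over it in Cd4 cells, and 45.7% and 33.96% in Cd8 cells. Counted only among UMIs outside ribosomal, mitochondrial and Gm42418 RNA, the members were 1.05 to 1.08 times higher over the limit in Cd4 cells and 1.01 to 1.03 times in Cd8 cells.

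**Figure D1:**
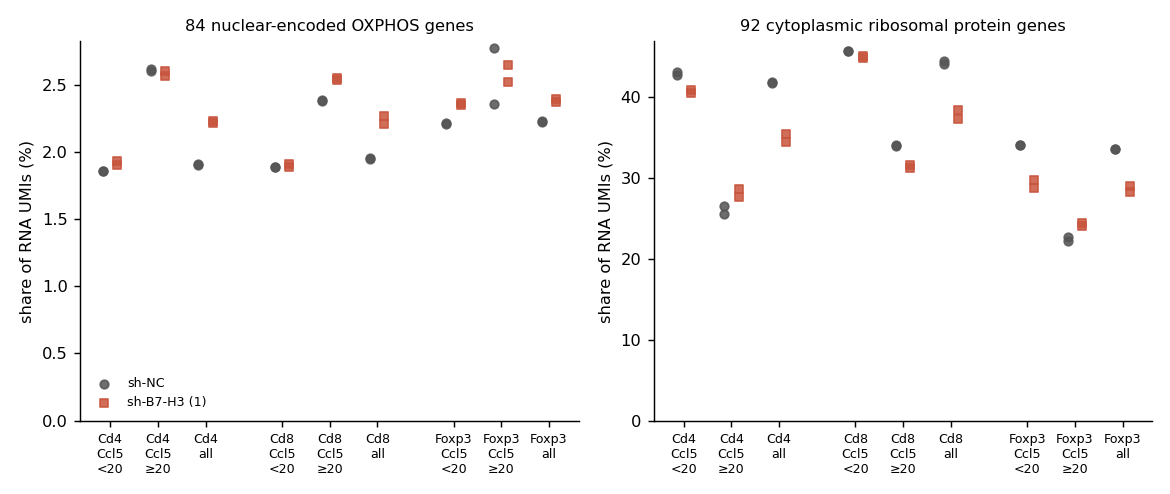
Share of UMIs, in percent, taken by the 84 members (left) and by cytoplasmic ribosomal protein genes (right), in each lineage and Ccl5 class; each point is 1 library, sh-NC or sh-B7-H3 (1). Members rose from about 1.86% to 2.62% between the Cd4 classes of sh-NC library 1, where the ribosomal share fell.

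Whole-lineage shares of all UMIs in sh-B7-H3 (1) were set against what the sh-NC class levels give at its mixture of Ccl5 classes. In Cd4 cells the share lay close to that value and in Cd8 cells somewhat above it. In Foxp3 cells, few of which pass the limit, it lay further above. In all Cd4 cells together the members took 1.90% and 1.91% of UMIs in sh-NC and 2.23% and 2.21% in sh-B7-H3 (1). Giving the sh-NC class levels the mixture of Ccl5 classes found in each sh-B7-H3 (1) library yielded 2.21% and 2.19%. In Cd8 cells the observed shares were 1.95% and 1.96% against 2.27% and 2.21%, and the control levels at the knockdown makeup gave 2.16% and 2.13%. In Foxp3 cells the observed shares were 2.23% and 2.22% against 2.37% and 2.40%, and the same calculation gave 2.25% and 2.25%. These are descriptions with no test, and they hold for shares of all UMIs. Among UMIs outside ribosomal, mitochondrial and Gm42418 RNA the mean share was higher in sh-B7-H3 (1) within both Cd4 classes. It was 3.50% in sh-NC against 3.68% under 20 and 3.67% against 3.92% over it, and 3.51% against 3.81% in all Cd4 cells. In Cd8 cells it was 3.75% in sh-NC against 3.95% under 20, 3.78% against 4.05% over it and 3.76% against 4.01% in all cells. The calculation with the mixture was not made on that scale. In both lineages the sh-B7-H3 (1) share of all cells lay above both sh-NC class means there, so no mixture of those means reaches it.

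Genes were then tested one by one, with edgeR's quasi-likelihood test on UMIs summed per library and class and Benjamini-Hochberg adjustment over all genes tested; a gene was called at an adjusted p under 0.05. Library totals were scaled by TMM, which sets the bulk of genes to no change, so each log2 difference is relative to the typical gene, whereas CPM are relative to all UMIs of the class. The scalings part between Ccl5 classes. Scaled by all UMIs, the median of all genes was higher by 0.36 in Cd4 and 0.37 in Cd8 cells over the limit, and that of the members by 0.42 and 0.32. After TMM the members' median was 0.07 and -0.04.

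Set against the typical gene, the members split by Ccl5 class. In Cd4 cells 23 of 76 were higher in cells with Ccl5 of 20 or more and 13 lower, beside 26.1% higher and 26.1% lower of all genes tested. In Cd8 cells 21 of 77 were higher and 26 lower, beside 26.8% and 26.7%. Without doublet removal this Cd8 balance turned, with more members higher than lower. The members' counts were thus near those of genes at large, and the levels of members are high, where the test sees small differences; the background was not matched on level. Both comparisons use the same 4 libraries.

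In complex IV more members were higher than lower. Of its tested members 7 of 12 were higher and 1 lower in Cd4 cells, with a median log2 difference of 0.34, and 8 of 13 higher and 3 lower in Cd8 cells, with a median of 0.21. Of the 17 ATP synthase members, 3 were higher and 6 lower in each lineage, with medians of -0.01 in Cd4 and -0.05 in Cd8 cells. No difference between complexes was tested. Complex I had 11 higher and 5 lower of 35 in Cd4 cells and 8 higher and 12 lower in Cd8 cells. Complex III had 2 higher and 1 lower of 8 in Cd4 cells and 1 higher and 4 lower in Cd8 cells. With totals of all UMIs in place of TMM, 61 members were higher and 3 lower in Cd4 cells and 64 and 3 in Cd8 cells, where the balance turned. The median of all genes was then 0.36 and 0.37, beside 0.42 and 0.32 for the members, so these counts are not particular to the members.

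**Figure D2:**
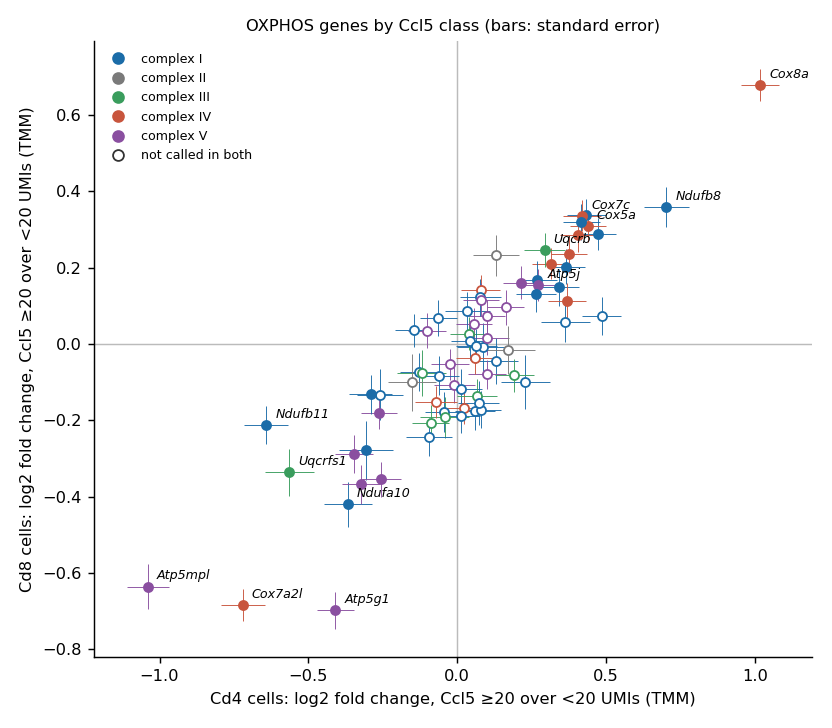
Log2 difference between cells with Ccl5 of at least 20 and under 20 in Cd4 cells (horizontal) and Cd8 cells (vertical), after TMM scaling; each point is 1 member of at least 50 CPM, colored by complex and filled where called in both, and bars are standard errors. Cox8a lies at 1.02 and 0.68, Cox7a2l at -0.72 and -0.68; with totals of all UMIs most members move above 0 on both axes.

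Cox8a, a small subunit of complex IV, had the largest difference upward among the members called. Its level in Cd4 cells under 20 was 553.9 and 541.2 CPM in sh-NC and 619.8 and 615.2 in sh-B7-H3 (1), and over the limit 1446, 1495, 1511 and 1575 CPM. The classes did not overlap in any library. The log2 difference was 1.02 ± 0.063 (SE, n = 4 libraries, adjusted p = 1.29e-07 by edgeR) in Cd4 cells and 0.68 ± 0.042 (adjusted p = 1.60e-07) in Cd8 cells. Ndufb8, an accessory subunit in the membrane arm of complex I, rose by 0.70 ± 0.075 (adjusted p = 1.03e-05) in Cd4 cells and by 0.36 ± 0.052 (adjusted p = 0.000129) in Cd8 cells. In Cd4 cells it went from 109.6 to 115.7 CPM under the limit to between 205.6 and 268.0 over it. Of the other complex IV subunits Cox5a was higher by 0.44 in Cd4 cells and Cox7c by 0.42 in Cd4 and 0.34 in Cd8 cells. In complex III Uqcrb, a subunit near the ubiquinone site, rose by 0.29 and 0.25. Ndufs6 was higher by 0.48 in Cd4 cells, and Ndufa13 by 0.34 in Cd8 cells. In ATP synthase Atp5j was higher by 0.27 and 0.15 and Atp5f1, the stator subunit b, by 0.21 and 0.16, the Cd8 call of Atp5j lost without sh-B7-H3 (1) replicate 2. Uqcrq at 0.19 and Atp5d at 0.16 in Cd4 cells were each lost without 3 of the 4 libraries taken singly, all but sh-B7-H3 (1) replicate 1 for Uqcrq and all but sh-NC replicate 2 for Atp5d.

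Cox7a2l, counted in complex IV, took the other course. It stood at 556.5, 533.4, 549.3 and 566.8 CPM in Cd4 cells under the limit and at 379.9, 413.2, 460.1 and 457.8 over it, in the order sh-NC then sh-B7-H3 (1). All 4 libraries were lower over the limit. The log2 difference was -0.72 ± 0.075 (adjusted p = 7.94e-06) in Cd4 and -0.68 ± 0.041 (adjusted p = 1.22e-07) in Cd8 cells. Among ATP synthase genes, Atp5mpl, a small membrane proteolipid, changed by -1.04 ± 0.071 in Cd4 and -0.64 ± 0.058 in Cd8 cells. Its Cd4 levels were 348.4, 362.9, 323.1 and 322.2 CPM under the limit and 256.4, 213.2, 184.5 and 196.1 over it. Atp5g1, 1 of the genes for the rotating c-ring, changed by -0.41 and -0.70. Its Cd4 levels hardly moved on the CPM scale, 292.5 against 284.9 on average in sh-NC, so its fall is against the typical gene.

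The other members named were mixed as well. Ndufa10, an accessory subunit of complex I, was lower by -0.37 in Cd4 and -0.42 in Cd8 cells, both calls lost with totals of all UMIs. Ndufb11 was lower by -0.64 in Cd4 cells. Ndufa9 and Ndufv2, of the matrix arm of complex I, were lower by -0.31 and -0.29 in Cd4 cells, and both lie above 0, at 0.04 and 0.06, with totals of all UMIs. The Ndufa9 call was lost without sh-NC replicate 1 or sh-B7-H3 (1) replicate 1. Ndufs3 was lower by -0.26 in Cd4 cells, lost without the replicate 2 library of either group and at 0.091 with totals of all UMIs. In Cd8 cells Ndufa9 (-0.28, lost without sh-NC replicate 2), Uqcr10 (-0.21), Ndufa4 (-0.17) and Cox7b (-0.15) were lower, and all 4 lie above 0 with totals of all UMIs. Higher there, against the balance of complex I or ATP synthase, were Ndufb9 by 0.32, Ndufb7 by 0.29, Ndufa1 by 0.20, Ndufs7 by 0.17, Ndufs5 by 0.15, Ndufa11 by 0.13 and Atp5md by 0.12. Of these 7 calls, 4 were lost with a library left out: Ndufs7 without sh-B7-H3 (1) replicate 2, Ndufs5 and Ndufa11 without sh-NC replicate 2 or either sh-B7-H3 (1) library, and Atp5md without any 1 library. Uqcrfs1, the Rieske iron-sulfur protein of complex III, was lower by -0.56 in Cd4 and -0.34 in Cd8 cells. With totals of all UMIs the Cd4 call was lost and the Cd8 difference turned to 0.019. In complex II, Sdhb, the iron-sulfur subunit, was higher by 0.23 ± 0.054 in Cd8 cells (adjusted p = 0.00347 by edgeR). Of the 4 complex II members 1 was higher and 1 lower there, with a median of -0.06. None of them was called in Cd4 cells.

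Promoters are shown for 3 members with large differences by Ccl5 class and an entry in the table used, Cox8a and Ndufb8, which were higher, and Cox7a2l, which was lower. Atp5mpl had no entry. They were read from RefSeq on GRCm38.p6, 250 bases before to 50 bases after the annotated start, where 67 of the 84 members had an entry. Capitals mark 1 of 3 motifs searched on both strands. A gene was counted if any of its promoter entries held the motif, and the background was all genes with an entry, not matched on expression. An NRF1-type motif (GCATGCGC) was found for 10 of the 67 members, 14.9%, against 3.05% of 27025 genes. A YY1-type motif (AAGATGGC) was in 9, 13.4% against 3.19%, and an ETS-type motif (CCGGAAGT, or ACTTCCGG on the other strand) in 5, 7.46% against 4.31%. A match is a description of the letters only. Cox8a lies at chr19:7217567-7217866 on the minus strand and holds 2 ETS-type matches.
Cox8a: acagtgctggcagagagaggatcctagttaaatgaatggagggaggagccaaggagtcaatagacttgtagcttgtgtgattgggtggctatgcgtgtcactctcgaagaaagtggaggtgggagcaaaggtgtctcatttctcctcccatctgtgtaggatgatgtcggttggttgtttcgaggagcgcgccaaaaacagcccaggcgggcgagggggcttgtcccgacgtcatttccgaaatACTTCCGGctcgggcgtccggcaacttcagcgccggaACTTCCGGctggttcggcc
Ndufb8 lies at chr19:44555393-44555692 on the minus strand and holds 1 YY1-type match.
Ndufb8: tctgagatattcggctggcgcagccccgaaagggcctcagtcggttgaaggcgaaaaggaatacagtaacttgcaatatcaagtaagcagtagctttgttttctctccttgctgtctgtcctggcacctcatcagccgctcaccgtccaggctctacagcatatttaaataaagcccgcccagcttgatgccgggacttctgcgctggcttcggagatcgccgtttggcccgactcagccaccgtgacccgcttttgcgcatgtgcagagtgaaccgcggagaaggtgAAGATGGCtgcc
Cox7a2l lies at chr17:83514284-83514583 on the minus strand and holds none of the 3 motifs. Another annotation places the gene at chr17:83501918-83517330, so this stretch lies inside it, away from that 5′ end. Which start these cells use was not tested.
Cox7a2l: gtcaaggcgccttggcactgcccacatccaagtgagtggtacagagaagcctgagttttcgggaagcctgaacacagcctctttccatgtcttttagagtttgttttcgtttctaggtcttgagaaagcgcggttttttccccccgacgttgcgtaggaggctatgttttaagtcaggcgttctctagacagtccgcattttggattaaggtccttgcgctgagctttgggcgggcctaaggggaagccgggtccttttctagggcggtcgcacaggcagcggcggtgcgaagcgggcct

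The other gene lists of the pathway were counted between the same Ccl5 classes, with no test of a difference between lists. All 13 mitochondrially encoded protein genes were lower in cells over the limit in both lineages, with median log2 differences of -0.87 in Cd4 and -0.90 in Cd8 cells. They include mt-Cytb, of complex III, at -1.08 and -1.12, and mt-Co1, a core of complex IV, at -0.68 and -0.67. Cytoplasmic ribosomal protein genes were lower for 76 of 84 in Cd4 and 79 of 85 in Cd8 cells, beside 26.1% and 26.7% of all genes, with 2 and 1 higher. Of 78 mitochondrial ribosome genes 10 were higher and 27 lower in Cd4 cells and 9 and 43 in Cd8 cells. Of 23 protein import genes 2 were higher and 10 lower in Cd4 cells and 1 and 15 in Cd8 cells. Of 13 TCA cycle genes 1 was higher and 3 lower in Cd4 cells and 1 and 5 in Cd8 cells. The 3 lower in Cd4 cells were near the share of all genes, and the 1 higher was under it. Assembly factors were split, 15 higher and 11 lower of 47 in Cd4 and 10 and 13 in Cd8 cells.

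Among the regulators of mitochondrial content, 5 of 12 were lower in each lineage and 1 was higher in Cd8 cells, beside 26.1% and 26.7% of all genes lower. Myc, a driver of growth genes, was lower by -1.63 ± 0.16 in Cd4 and -1.61 ± 0.15 in Cd8 cells (adjusted p = 5.81e-06 and 4.68e-06). Tfam, which packages and transcribes mitochondrial DNA, was lower by -0.92 and -0.68, and the coactivators Pprc1 and Ppargc1b by -1.38 and -1.49 in Cd4 cells. Of the electron carriers, Etfb, which brings electrons from fatty acid oxidation, was higher by 1.18 ± 0.073 and 0.83 ± 0.058, and cytochrome c (Cycs) by 0.52 ± 0.071 in Cd4 cells.

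Between knockdown and control, whole lineages were compared first, in which the share of cells over the Ccl5 limit also differed. In all Cd4 cells 32 of 77 members were higher in sh-B7-H3 (1) and 13 lower, beside 21.7% and 21.3% of all genes, with a members' median of 0.07. In all Cd8 cells 32 of 77 were higher and 12 lower, beside 22% and 21%, again with a median of 0.07. Among the largest differences were those of genes that also part the Ccl5 classes. Cox8a was higher by 0.66 in all Cd4 and 0.52 in all Cd8 cells, Atp5mpl was lower by -0.52 and -0.35, Uqcrfs1 by -0.50 and -0.39 and Ndufa10 by -0.26 and -0.31. Atp5k, by contrast, was higher by 0.36 in both whole lineages, while its differences between Ccl5 classes were 0.10 and 0.02 and did not pass the test. Cox7a2l was lower by -0.18 and -0.19 in the whole lineages, while within the Ccl5 classes its differences were 0.06 and 0.30 in Cd4 cells and 0.08 and 0.12 in Cd8 cells, of which the 0.30 passed the test. Other members were higher too. In all Cd4 cells Ndufs6 was higher by 0.44, Ndufa1 by 0.40, Cox7c by 0.34, Uqcrb by 0.26, Uqcrq by 0.22 and Atp5l by 0.20. In all Cd8 cells Cox7c was higher by 0.36, Ndufa13 and Ndufa1 by 0.31 each, Atp5md by 0.23, Uqcrb by 0.21 and Uqcrh by 0.14, the last lost without sh-NC replicate 2.

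The other members named as lower had smaller differences. In all Cd4 cells these were Ndufb11 at -0.25, Ndufv2 at -0.23, Atp5g2 at -0.20, Ndufs3 at -0.18, Uqcrc2 and Atp5a1 at -0.17 each, Atp5o and Sdhb at -0.16 each and Atp5g1 at -0.15. The calls of Sdhb and Atp5g1 were lost without sh-NC replicate 2, that of Sdhb also without sh-B7-H3 (1) replicate 1, that of Ndufs3 without the replicate 1 library of either group and that of Uqcrc2 without the replicate 2 library of either group. In all Cd8 cells they were Atp5a1 at -0.20, Ndufb11 and Atp5g1 at -0.18 each, Ndufa9 at -0.17, Ndufv2 and Ndufc2 at -0.16 each, Sdhd at -0.15 and Uqcrc2 at -0.12. The calls of Sdhd and Uqcrc2 were lost without any 1 library, those of Ndufa9 and Ndufc2 without sh-NC replicate 1 or sh-B7-H3 (1) replicate 2 and that of Ndufv2 without the latter. With totals of all UMIs none of these Cd4 calls but those of Ndufb11 and Atp5g2, and none of these Cd8 calls but that of Atp5a1, was kept.

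In all Foxp3 cells 7 of 76 were higher and none lower, beside 3.22% and 3.17%. The 7 were Atp5k (0.38), Uqcrb (0.30), Cox8a (0.28), Ndufa1 (0.27), Cox7c (0.26), Uqcrq (0.24) and Atp5j2 (0.21). At an unadjusted p under 0.05, not counted over all genes, they were 18 and 4, and DESeq2 called 3. The calls of Atp5k, Cox8a and Cox7c were kept with any 1 library left out and by DESeq2. Each of the other 4 was lost without at least 2 libraries taken singly and with DESeq2. A stricter lineage call, with at least 2 Foxp3 UMIs and no Cd8 UMI, lost Atp5k, Cox8a and Cox7c too and left 1 call. Without cells holding at least 3 UMIs of the myeloid markers there were 4 calls, as there were with mitochondrial UMIs up to 10%. The count of 7 became 4 without either sh-NC library and 3 without sh-B7-H3 (1) replicate 2.

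Within Ccl5 classes, where the makeup is partly held, more members were higher than lower in sh-B7-H3 (1) after TMM scaling. With totals of all UMIs in its place this balance turned in 2 of the 5 classes. Cd4 cells over the limit then had 3 calls, all lower, and Cd8 cells under it had 5 higher and 8 lower. The median of all genes at that scaling was -0.08 and -0.07 in these 2 classes. Without doublet removal the balance also turned in Cd4 cells over the limit, to 3 calls, all lower. In Cd4 cells under 20, 14 of 76 were higher and 1 lower, beside 5.48% and 4.28% of all genes. That count of 15 became 6 without sh-NC replicate 1, 9 without sh-NC replicate 2, 8 without sh-B7-H3 (1) replicate 1 and 9 without its replicate 2. With DESeq2 it became 6. In Cd4 cells of 20 or more 1 was higher and none lower of 76, beside 1.69% and 1.93%. There 14 members were higher and 5 lower at an unadjusted p under 0.05, a limit not counted over all genes, and DESeq2 called 0. The 1 call was lost without either sh-B7-H3 (1) library, and there were 2 without sh-NC replicate 2. Those cells were few in sh-NC, 128 in each library.

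In Cd8 cells under 20, 18 of 77 were higher and 2 lower after TMM scaling, beside 3.81% and 3.47%, but the count of 20 fell to 2 without sh-NC replicate 1 and to 1 without sh-NC replicate 2. At 20 or more, 20 of 76 were higher and 2 lower, beside 4.55% and 5.3%, and the count of 22 fell to 14 and 13 without sh-NC replicates 1 and 2. DESeq2 called fewer than 14 in each of these 2 Cd8 classes, by counts given with the processing below. In Foxp3 cells under 20, 5 of 76 were higher and none lower, beside 2.73% and 2.7%, with no call by DESeq2. At an unadjusted p under 0.05, not counted over all genes, they were 16 and 3. The count of 5 became 1 and 0 without sh-NC replicates 1 and 2, and 8 and 2 without sh-B7-H3 (1) replicates 1 and 2. The members' median log2 difference was 0.06, 0.05, 0.07, 0.11 and 0.07 in these 5 classes in the order given, beside 0.01 or less in size for all genes. With totals of all UMIs it was 0.03, -0.03, -0.01, 0.07 and 0.08, beside -0.02, -0.08, -0.07, -0.04 and 0.01 for all genes. The differences were small, and none of the calls in the Cd4, Cd8 and Foxp3 classes reached a log2 difference of 0.5. Gm42418 and AY036118 moved with the groups in each of these classes, as did the effector list, without overlap, as given above.

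**Figure D3:**
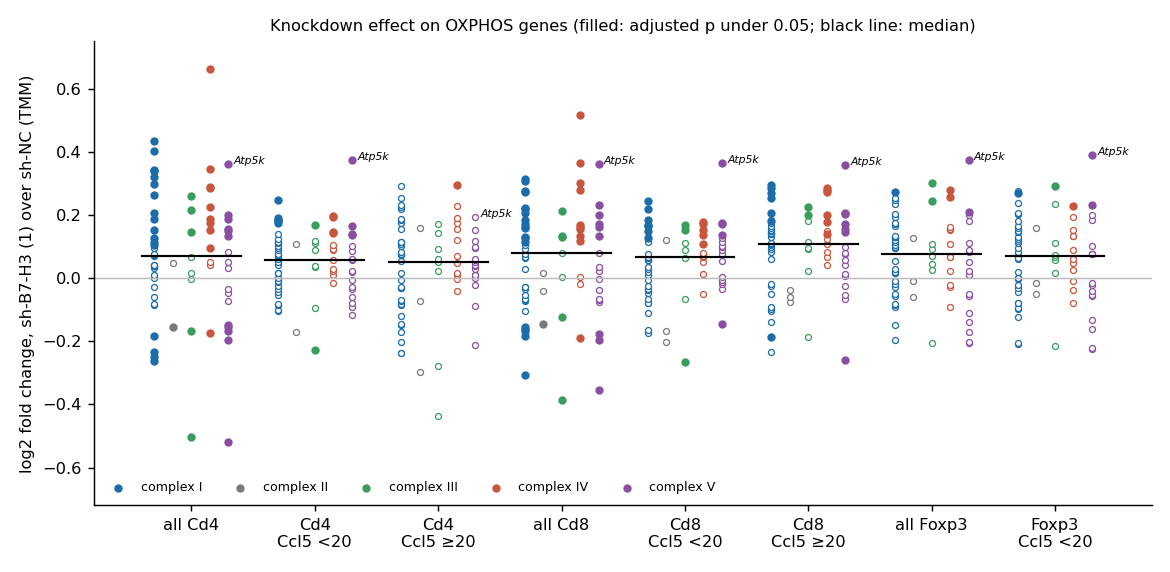
Log2 difference, sh-B7-H3 (1) against sh-NC, of each tested member with a mean of at least 50 CPM, in whole lineages and in 5 lineage and Ccl5 classes, after TMM scaling; points are members, colored by complex, filled points passed the test, and black lines are medians. Within the classes Atp5k stands at 0.37, 0.36, 0.36 and 0.39 where it was called, and the medians lie just above 0.

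Atp5k, subunit e of ATP synthase, which sits where the enzyme pairs in the membrane, had the largest called difference in 4 of the 5 classes. In Cd4 cells under 20 it stood at 221.2 and 218.8 CPM in sh-NC and at 280.2 and 281.0 in sh-B7-H3 (1). In Cd8 cells it was 223.9 and 223.5 against 267.2 and 278.4 under the limit, and 286.3 and 286.7 against 345.5 and 367.6 over it. In Foxp3 cells under 20 it was 280.2 and 254.0 against 356.1 and 351.6. The groups did not overlap in these 4 classes, and the log2 differences were 0.37 ± 0.042, 0.36 ± 0.038, 0.36 ± 0.051 and 0.39 ± 0.080 (SE, n = 2 against 2, adjusted p by edgeR 3.84e-06, 2.15e-06, 9.35e-05 and 0.00251). In Cd4 cells over the limit it was 368.2 and 292.7 against 350.3 and 360.2 CPM, where the groups overlapped (0.19 ± 0.084, adjusted p = 0.245). Of these 4 calls only that in Foxp3 cells was lost with a library left out, sh-NC replicate 2. Droplets of 100 UMIs or fewer, which hold free RNA, had it at 243.2, 254.1, 218.1 and 249.8 CPM, with the groups overlapping. Of the other members looked at in these droplets, 3 did separate by group. Cox8a was 523.8 and 565.4 CPM in sh-NC against 626.0 and 744.3 in sh-B7-H3 (1), Atp5mpl 279.5 and 285.5 against 206.3 and 243.6, and Uqcrfs1 88.84 and 103.6 against 82.37 and 85.0, each in the direction of its called knockdown differences in cells. The groups overlapped for Ndufa1, Cox7c, Ndufb8 and Cox7a2l. The part of free RNA in the differences in cells was not tested. The 3′ end of its transcript closely matches a pseudogene, Atp5k-ps2, so its count is uncertain to that extent.

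The Atp5k promoter is shown because Atp5k had the largest called difference in 4 of the 5 Ccl5 classes. It lies at chr5:108434350-108434649 on the minus strand (RefSeq, GRCm38.p6), and the capitals mark NRF1-type matches on both strands that overlap.
Atp5k: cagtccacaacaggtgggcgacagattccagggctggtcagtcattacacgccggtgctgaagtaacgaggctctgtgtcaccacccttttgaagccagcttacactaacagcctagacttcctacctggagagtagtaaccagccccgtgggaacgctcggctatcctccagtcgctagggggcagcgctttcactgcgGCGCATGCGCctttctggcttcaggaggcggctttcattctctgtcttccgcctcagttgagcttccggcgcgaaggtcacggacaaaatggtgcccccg

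Several small subunits moved with it. Ndufa1, an accessory subunit of the complex I membrane arm, was 195.0 and 195.9 CPM against 224.0 and 232.3 in Cd4 cells under 20, with no overlap (0.25 ± 0.045, adjusted p = 0.000851). Over the limit in Cd8 cells it was 279.0 and 285.3 against 322.6 and 344.6 CPM (0.28 ± 0.052, adjusted p = 0.00109). Its difference in Foxp3 cells, 0.27 ± 0.081 with an adjusted p of 0.0488, lay at the edge of the threshold and was lost without any 1 of the libraries. Cox7c, a small complex IV subunit, was 828.3 and 839.8 CPM against 974.5 and 994.1 in Cd8 cells over the limit (0.28 ± 0.037, adjusted p = 4.56e-05), and it was called higher in the same 4 classes as Atp5k, though its calls in Cd8 and Foxp3 cells under 20 were lost without either sh-NC library and that in Cd4 cells without sh-NC replicate 1. So was Atp5j2, subunit f of ATP synthase, by 0.14, 0.14, 0.15 and 0.23 in Cd4 cells under 20, Cd8 cells under and over 20 and Foxp3 cells. Each of these 4 Atp5j2 calls was lost with DESeq2 and without sh-NC replicate 1, and each without at least 1 other library.

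Cox8a rose within classes as well as across them. In Cd4 cells under 20 it was higher by 0.20 ± 0.032 (adjusted p = 0.000316), and in Cd8 cells over the limit it went from 1230 and 1244 CPM to 1485 and 1450 (0.29 ± 0.034, adjusted p = 1.71e-05). Cox6b1, which bridges the complex IV dimer, was higher by 0.20 in Cd4 cells under 20 and by 0.18 in Cd8 cells under 20. Ndufa13 was higher by 0.19 in Cd4 cells under 20, Ndufa2 by 0.24 in Cd8 cells under 20 and Ndufs6 by 0.29 in Cd8 cells over the limit, all 3 accessory subunits of complex I. Of complex III, Uqcrh was higher by 0.23 ± 0.038 in Cd8 cells over the limit, at 981.4 and 941.4 CPM against 1112 and 1074, and Uqcrq by 0.17 in Cd4 cells under 20. Uqcr11 was higher by 0.17 in Cd8 cells under 20, and Uqcrb by 0.29 in Foxp3 cells. Atp5l, subunit g of ATP synthase, was higher by 0.17 in Cd4 cells under 20 and by 0.21 in Cd8 cells over the limit, and Atp5md by 0.18 in Cd8 cells under 20. In Cd8 cells under 20 Ndufs6 was also higher by 0.22 and Uqcrq by 0.15, and over 20 Uqcrq by 0.20, all 3 lost without either sh-NC library and with DESeq2, and the Uqcrq calls also without sh-B7-H3 (1) replicate 2 under the limit and its replicate 1 over it. Of the other calls in this paragraph, those of Cox8a, Uqcrh, Atp5l and, in Cd4 cells, Cox6b1 held with any 1 library left out. The others rested on single libraries. The Cd8 calls of Cox6b1 and Atp5md were lost without either sh-NC library, those of Ndufa2, and of Ndufs6 over the limit, without sh-NC replicate 2, and that of Ndufa13 without sh-B7-H3 (1) replicate 1. Uqcrq in Cd4 cells was lost without sh-NC replicate 1 or sh-B7-H3 (1) replicate 1, and Uqcr11 and Uqcrb without either sh-NC library or sh-B7-H3 (1) replicate 2. DESeq2 did not call Ndufs6, Uqcrq, Uqcr11, Uqcrb or Atp5md there.

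**Figure D4:**
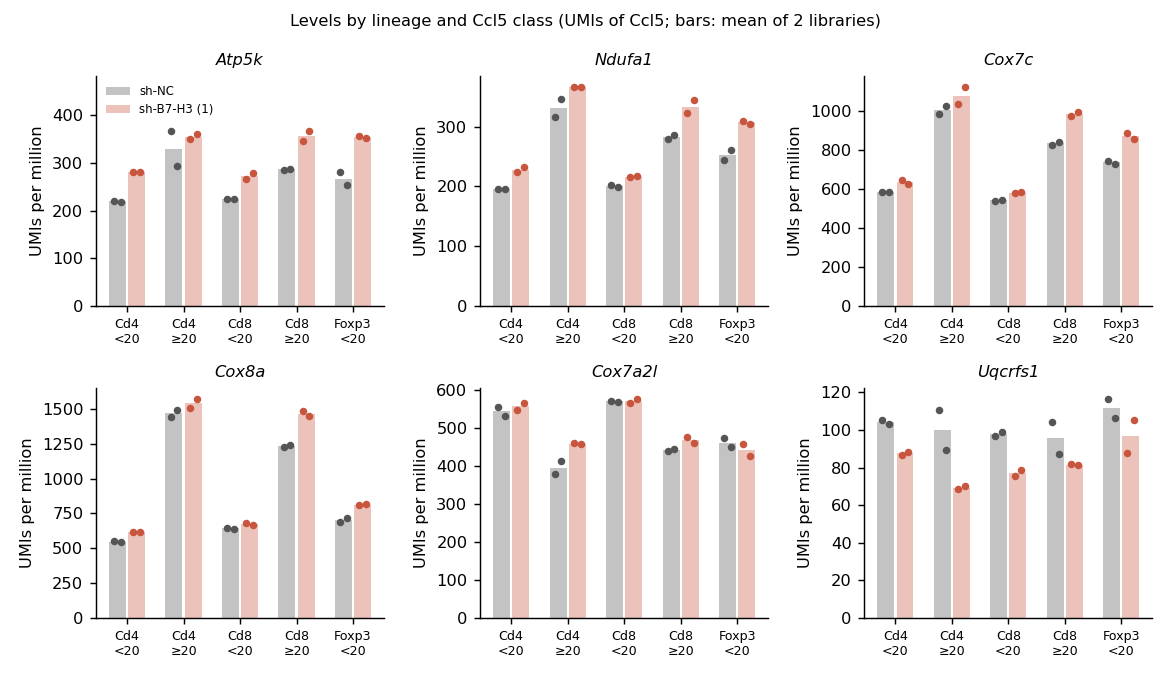
Level in CPM of Atp5k, Ndufa1, Cox7c, Cox8a, Cox7a2l and Uqcrfs1 in 5 lineage and Ccl5 classes; bars are group means, which start at 0, and points are the 2 libraries of sh-NC and of sh-B7-H3 (1). Atp5k, Ndufa1, Cox7c and Cox8a stand higher in sh-B7-H3 (1) in most classes and Uqcrfs1 lower.

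Few members fell. Uqcrfs1 was 105.3 and 103.2 CPM in sh-NC against 86.84 and 88.13 in sh-B7-H3 (1) in Cd4 cells under 20 (-0.23 ± 0.062, adjusted p = 0.022), and 96.87 and 98.89 against 75.64 and 78.41 in Cd8 cells under 20 (-0.27 ± 0.056, adjusted p = 0.00457). The groups did not overlap in either, but the Cd4 call was lost without any 1 library and the Cd8 call without either sh-NC library. Atp5d, the delta subunit of the ATP synthase stalk, was lower by -0.14 in Cd8 cells under 20 (adjusted p = 0.0286), lost without either sh-NC library or sh-B7-H3 (1) replicate 2. Over the limit in Cd8 cells Atp5mpl was 328.8 and 319.9 against 251.4 and 274.5 CPM (-0.26 ± 0.054, adjusted p = 0.0038, a call lost without sh-NC replicate 1), and Ndufb11 was lower by -0.19 (adjusted p = 0.0263), lost without either sh-NC library or sh-B7-H3 (1) replicate 1. In Cd4 cells over the limit the 1 call was Cox7a2l, at 379.9 and 413.2 against 460.1 and 457.8 CPM (0.30 ± 0.075, adjusted p = 0.0194), and it was lost without sh-NC replicate 1 or either sh-B7-H3 (1) library.

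Complex II, whose 4 genes also serve the TCA cycle, was low and gave no call within classes by edgeR. The catalytic flavoprotein Sdha was 64.66 and 67.68 CPM in sh-NC against 68.43 and 71.34 in Cd4 cells under 20 (0.11 ± 0.073, adjusted p = 0.427). Sdhb was 107.7 and 112.2 against 101.3 and 92.06 CPM (-0.17 ± 0.064, adjusted p = 0.113), and the groups did not overlap in either gene. The membrane anchors Sdhc and Sdhd stood at 34.77 and 39.27 against 30.69 and 30.54, and at 46.80 and 45.79 against 47.56 and 40.79 CPM.

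Of subunits with tissue forms, the common form carried nearly all UMIs. Cox4i1 stood at 734.4, 712.5, 776.6 and 740.4 CPM in Cd4 cells under 20 and was higher with the knockdown in Cd8 cells over the limit, by 0.14 ± 0.038 (adjusted p = 0.0268). Cox6a1 was higher by 0.15 in both Cd4 and Cd8 cells under 20 (adjusted p = 0.0429 and 0.0216), and Cox7a2 by 0.18 in Cd8 cells over the limit. These 4 calls were lost with DESeq2, with totals of all UMIs and without at least 1 library: sh-NC replicate 2 or sh-B7-H3 (1) replicate 1 for Cox4i1, any 1 library for Cox6a1 in Cd4 cells, any but sh-B7-H3 (1) replicate 2 for Cox6a1 in Cd8 cells, and sh-NC replicate 1 for Cox7a2. Of the 3 c-ring genes of ATP synthase, Atp5g2 stood highest, at 483.6, 482.5, 450.2 and 450.9 CPM in Cd4 cells under 20. Atp5g3 stood at 231.6, 235.4, 229.5 and 246.9 CPM, and its knockdown difference there was 0.06 ± 0.046 (adjusted p = 0.52).

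The knockdown difference was also compared between Ccl5 classes. In Cd8 cells it was larger over the limit than under it for Cox6c (0.16), Uqcrh (0.15) and Cox8a (0.14) and lower for Atp5mpl (-0.24), 3 and 1 of 77 members beside 0.408% and 2.9% of all genes. Without any 1 library the count was between 1 and 3, and each of the 4 calls was lost without some library. Without doublet removal the calls of Cox6c, Uqcrh and Cox8a were lost, and the 3 members then called were all lower. DESeq2 called none. The members' median of this difference was 0.03 and that of all genes -0.04. In Cd4 cells edgeR called 0 of 76, beside 1.3% and 3.23% of all genes, and DESeq2 called 0. At an unadjusted p under 0.05, not counted over all genes, 2 were higher and 1 lower.

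The other gene lists of the pathway were counted under knockdown in the same classes, with no test of a difference between lists. Of the 13 mitochondrially encoded genes 10 were higher and 1 lower in Cd4 cells under 20, and 12, 10, 10 and 7 were higher in Cd4 cells over the limit, Cd8 cells under and over it and Foxp3 cells under 20, with medians from 0.22 to 0.51. These are the levels left after the removal of cells over 5% mitochondrial UMIs, which took a larger share of sh-B7-H3 (1) cells. Of 78 mitochondrial ribosome genes, 6, 1, 1, 2 and 2 were lower in the 5 classes and none higher. Of 23 import genes between 0 and 3 were called higher and between 0 and 2 lower. Of 44 to 47 assembly factors tested, between 1 and 3 were higher and between 0 and 1 lower. In the same order, 5.48%, 1.69%, 3.81%, 4.55% and 2.73% of all genes were called higher. Called lower were 4.28%, 1.93%, 3.47%, 5.3% and 2.7%. The mitochondrial ribosome and assembly factor counts were mostly near or under those shares. Cytoplasmic ribosomal protein genes differed in direction by class: 13 higher and 34 lower of 86 in Cd4 cells under 20, 31 higher of 83 in Cd4 cells over it, 30 higher and 9 lower of 86 in Cd8 cells under 20, 11 higher and 33 lower of 84 in Cd8 cells over it, and 1 higher and 57 lower of 84 in Foxp3 cells.

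Members with short transcripts made up most of those called higher under knockdown in 4 of the 5 classes, all but Cd4 cells over the limit, a split looked at after the values were known. At a median transcript length under 1000 bases, 13 of 57 were called higher in Cd4 cells under 20 and 18 of 57 in Cd8 cells over the limit, against 1 and 2 of the 19 longer members. Across members, which are not independent, Spearman's rho of length and log2 difference was -0.42 in Cd4 cells under 20, -0.35 and -0.51 in Cd8 cells under and over the limit and -0.48 in Foxp3 cells under 20. Over all genes it was 0.02, 0.06, 0.00 and 0.01. In Cd4 cells over the limit rho was -0.23, beside 0.06 over all genes, the medians of short and long members were both 0.05, and the 1 call was a long member, Cox7a2l. Atp5k has a median length of 321.5 bases, Ndufa1 419 and Uqcrfs1 1363. Whether transcript length bears on these differences was not tested.

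The lineages differed in the members too. Among cells under the Ccl5 limit, 56 of 76 members were higher in Cd8 than in Cd4 cells, beside 15.9% of all genes, and none was lower, beside 15.3%. At an unadjusted p under 0.05, not counted over all genes, these were 60 and 0, and DESeq2 called 50, none of them lower. Totals without ribosomal and mitochondrial counts left far fewer than 50, by the count given with the processing below. The members' median difference was 0.18 relative to the typical gene. Scaled by all UMIs it was -0.01, with 10 members called higher and 9 lower, as the median of all genes was then -0.19. After TMM scaling several other lists leaned this way, so it is not particular to the members. Of 86 cytoplasmic ribosomal protein genes 73 were higher and 1 lower, and of 78 mitochondrial ribosome genes 35 and 0. Of 23 import genes 13 were higher and 0 lower, and of 13 mitochondrially encoded genes 10 and 1. Assembly factors had 10 higher and 3 lower of 47, and TCA cycle genes 1 and 0 of 13. No difference between lists was tested, and the background was not matched on level. Ndufa4, a complex IV subunit, was higher by 0.36 ± 0.043, at 480.1, 482.7, 489.5 and 462.3 CPM in Cd8 against 419.9, 424.7, 426.5 and 418.2 in Cd4 cells. The lineages did not overlap in any library. Sdhd was higher by 0.42, Atp5g1 by 0.39, Cox8a by 0.36, Ndufb2 by 0.36, Uqcr11 by 0.31, Ndufa12 by 0.30, Atp5g2 by 0.27 and Uqcr10 by 0.23.

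Over the limit 11 of 76 were higher in Cd8 than in Cd4 cells and 1 lower, beside 10.1% and 9.36%. There were 7 calls without either sh-B7-H3 (1) library in place of 12, and fewer still with DESeq2. Atp5mpl led at 0.63 ± 0.064, followed by Ndufb11 at 0.54, Atp5g2 at 0.34 and Ndufs3 at 0.31, and Ndufs6 was lower by -0.24, the last 2 calls lost without either sh-B7-H3 (1) library. Uqcrfs1 was higher by 0.28, lost without either sh-B7-H3 (1) library, and Cox7a2l by 0.25, lost without sh-NC replicate 1. With totals of all UMIs the balance turned to 2 higher and 11 lower, where the median of all genes was -0.17 and that of the members -0.09.

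Foxp3 cells under the limit gave the members 2.21% and 2.22% of UMIs in sh-NC and 2.35% and 2.36% in sh-B7-H3 (1), more than Cd4 cells under it in every library. Among UMIs outside ribosomal, mitochondrial and Gm42418 RNA the mean shares were 3.55% in Foxp3 against 3.50% in Cd4 cells of sh-NC and 3.67% against 3.68% in sh-B7-H3 (1). Myeloid markers summed to 1194, 415.6, 558.7 and 786.5 CPM in these Foxp3 cells against 396.4, 270.5, 522.9 and 473.6 in the Cd4 cells, and their part in the difference was not tested. Relative to the typical gene 18 of 76 were higher and 15 lower, beside 21.9% and 20%. Higher were Ndufb8 by 0.39, Uqcr11 by 0.34, Ndufb7 by 0.33, Sdhd, a membrane anchor of complex II, by 0.32, Cox6b1 by 0.24, Uqcrc1 and Sdhb by 0.22 each, Cox5b by 0.19 and Atp5d by 0.18. The call of Sdhb was lost without sh-B7-H3 (1) replicate 2 and that of Atp5d without sh-NC replicate 2. Without cells holding at least 3 myeloid UMIs the calls of Sdhb, Uqcrc1 and Cox5b were lost, as were those of Ndufc1 and Ndufa3 below. Lower were Cox7a2l by -0.57 ± 0.049 (adjusted p = 1.13e-08), Ndufa10 by -0.48 and Atp5g1 by -0.27. Also lower, but above 0 with totals of all UMIs, were Ndufc1 by -0.24, Atp5h by -0.22, Ndufb10 by -0.21, Ndufa2 by -0.19, Sdha by -0.18, Ndufa3 and Cox6a1 by -0.17 each and Uqcrfs1 by -0.16. Of these, Atp5h, Ndufb10 and Ndufa2 kept the call with any 1 library left out; it was lost without sh-B7-H3 (1) replicate 2 for Ndufc1, its replicate 1 for Ndufa3, sh-NC replicate 2 for Cox6a1, either sh-NC library for Sdha, and either of those or sh-B7-H3 (1) replicate 1 for Uqcrfs1. With totals of all UMIs 62 were higher and 2 lower, and Atp5g1 stood at 0.006. The median of all genes was then 0.27, beside 0.30 for the members. All 13 mitochondrially encoded genes were lower in Foxp3 cells, with a median of -0.57.

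Some counts may hold reads of near copies. For 15 of the 84 members the last 300 bases match another annotated gene over at least 150 bases at 95% identity or more. Cox7c, Atp5j2, Atp5l, Uqcrb, Cox6c and Ndufb11 are among them beside Atp5k, and 3 of the copies or overlapping genes, those of Atp5g1, Ndufb6 and Uqcrc2, are counted in the tables on their own. How the reads were divided was not tested.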

How the data were processed

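The authors deposited UMI counts per gene and cell as Cell Ranger matrices on mm10; the version is 6.1.1 in the filtered file headers and 4 in the raw ones, and the submitters' notes also name Seurat 4.0.0. Antibody tags (198) were not used here. The limits on a cell were 200 and 3000 genes with a UMI and a mitochondrial share of 5%, and doublets were removed by a score against simulated doublets (between 13.7% and 20.15% of cells that passed). Cd8 cells had at least 3 UMIs of Cd8a and Cd8b1 and none of Cd4, Foxp3 cells at least 1 Foxp3 UMI, and Cd4 cells at least 1 Cd4 UMI and none of Foxp3, the last 2 with fewer than 3 Cd8 UMIs. Counts were summed per library and class (at least 30 cells in each library) and tested with edgeR 4.0.16 (R 4.3.3) after TMM scaling and filterByExpr, with Benjamini-Hochberg adjustment over all genes. A library term entered the Ccl5 and lineage comparisons. The standard error is the absolute log2 difference over the square root of F. The steps were tested on simulated data.

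The members and lists were chosen with earlier results of these data known. Named with values are, per comparison and complex, up to 2 highest and 2 lowest called members with at least 50 CPM, with groups apart for knockdown effects; complex II, tissue isoforms and c-ring genes; and called members moving against their complex. Cox6c, Atp5j2, Atp5e and Uqcrh outside these were named after their values were seen. Same-numbered libraries did not deviate together (correlations from -0.0342 to 0.0302), so no block was used. Alternatives covered the test (DESeq2 1.42.0), scaling, filters, cell classes and left-out libraries. The floor given for members with 0 UMIs covers counting error only. Promoters came from RefSeq (GRCm38.p6), and 3′ copies were found with BLAST 2.17.0.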

Additional observations from a re-analysis of the deposited data

Results flagged for a closer look

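In Cd8 cells the knockdown difference of 4 members differed between the Ccl5 classes by edgeR's test of the difference itself. Atp5mpl differed by -0.244, being lower by -0.26 over the limit and -0.02 under it. Cox6c differed by 0.159, Uqcrh by 0.149 and Cox8a by 0.136. The adjusted p-values were 0.0144, 0.0291, 0.0148 and 0.0214, and DESeq2 called none of the 77 members. Without doublet removal the calls of Cox6c, Uqcrh and Cox8a were lost, and all members then called were lower. Gm42418 and AY036118 were at least 29590 CPM in sh-B7-H3 (1) and at most 6549 CPM in sh-NC in both classes, and their part was not tested.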

How the results depend on the processing

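Counts of members called were recomputed under up to 18 alternatives for 15 comparisons. Of 262 such counts 184 stayed within 1.5 times the reported one with the same balance. Shares of all genes called are given below only for the replicate block, so the other counts do not set the members against genes at large. Scaling by all UMIs without TMM, and all alternatives of the differences between classes and of the lineage comparisons, were added after seeing the data.

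A required log2 difference of 0.5 left 4 members in all Cd4, 0 in Cd4 under 20 and over it, 1 in all Cd8, 0 in Cd8 under and over 20, and 0 in all Foxp3 cells and those under 20. It left 6 by Ccl5 class in Cd4 cells (2 higher, 4 lower, a turned balance) and 4 in Cd8 cells, 0 in the Cd8 class difference, 0 and 2 for Cd8 against Cd4 under and over 20, and 1 for Foxp3 against Cd4, a turned balance. DESeq2 called 6 and 0 in Cd4 under and over 20, 6 and 11 in Cd8 under and over 20, 3 in all Foxp3, 0 in Foxp3 under 20, 0 in the Cd8 class difference and 5 for Cd8 against Cd4 over 20.

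Totals without ribosomal and mitochondrial counts gave 5 in Cd4 over 20, 4 in all Foxp3, 3 in Foxp3 under 20, 1 in the Cd4 class difference and 27 for Cd8 against Cd4 under 20. Totals of all UMIs gave 3 in Cd4 over 20 (all lower), 13 in Cd8 under 20 (5 higher, 8 lower), 8 in Foxp3 under 20, 64 and 67 by Ccl5 class in Cd4 and Cd8, 1 in the Cd4 class difference, 19 and 13 for Cd8 against Cd4 under and over 20, and 64 for Foxp3 against Cd4. Without the filter on low counts there were 4 in Cd4 over 20, 1 and 14 in the Cd4 and Cd8 class differences and 29 for Foxp3 against Cd4 (12 higher, 17 lower).

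Without doublet removal 3 were called in Cd4 over 20 (all lower), 46 by Ccl5 class in Cd8 (24 higher, 22 lower) and 3 in the Cd8 class difference (all lower). Without the upper gene limit there were 5 in Cd4 over 20. Mitochondrial UMIs up to 10% gave 2 in Cd4 over 20, 4 in all Foxp3 and 3 in Foxp3 under 20. The stricter lineage call gave 0 in Cd4 over 20 and 1 in all Foxp3 and in Foxp3 under 20. Without cells holding at least 3 myeloid UMIs there were 4 in all Foxp3 and 3 in Foxp3 under 20. The Cd8 class difference then had 2. Without cycling cells that difference also had 2, and Cd4 over 20 had 2. The cause of these shifts was not tested.

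With 1 library left out, between 33 and 42 members were called in all Cd4, 6 and 9 in Cd4 under 20, 0 and 2 in Cd4 over 20, 30 and 41 in all Cd8, 1 and 19 in Cd8 under 20, 13 and 21 in Cd8 over 20, 3 and 8 in all Foxp3, and 0 and 8 in Foxp3 under 20. By Ccl5 class it was between 32 and 34 in Cd4 and 35 and 43 in Cd8, in the class differences 0 and 0 in Cd4 and 1 and 3 in Cd8, and 40 and 52, 7 and 16, and 23 and 28 for Cd8 against Cd4 under and over 20 and Foxp3 against Cd4. The lone library left in a group is then assumed to vary like the others.

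With the replicate block, though the numbers did not pair the libraries, 43, 16 and 1 members were called in all Cd4, Cd4 under 20 and Cd4 over 20, 41, 27 and 28 in all Cd8, Cd8 under 20 and Cd8 over 20, and 6 and 4 in all Foxp3 and Foxp3 under 20. The shares of all genes called either way were then, in the same order, 42.0%, 10.8%, 2.52%, 40.7%, 9.36%, 12.4%, 7.86% and 5.87%.

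Of 163 called differences of single members, 2373 of 2847 values under alternatives kept direction and call, 457 lost the call (146 of them by the fold limit alone) and 17 changed sign. All 17 came with totals of all UMIs. By Ccl5 class in Cd4 cells these were Ndufs3 at 0.091, Ndufa9 at 0.04 and Ndufv2 at 0.06, and in Cd8 cells Ndufa9 at 0.077, Uqcrfs1 at 0.019, Uqcr10 at 0.15, Ndufa4 at 0.19 and Cox7b at 0.21. In Foxp3 against Cd4 cells they were Ndufc1 at 0.039, Sdha at 0.10, Uqcrfs1 at 0.12, Cox6a1 at 0.11, Atp5g1 at 0.006, Atp5h at 0.061, Ndufa3 at 0.11, Ndufb10 at 0.067 and Ndufa2 at 0.089. Atp5k kept its call in Cd4 and Cd8 classes under all alternatives but the fold limit, except in Cd4 cells over 20, where it was not called. Its call in Foxp3 cells was lost under 4 alternatives, that of Ndufa1 there under 14, and that of Cox7a2l in Cd4 cells over 20 under 8. A call of this size rests on 2 libraries per group, and in Cd4 cells over 20 on 128 cells in each sh-NC library.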
